A study of Mus musculus with 24 samples.

Results

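Meg3, Rian and Mirg are 3 long noncoding RNA genes that lie one after another on the same strand of mouse chromosome 12, in the imprinted Dlk1-Dio3 domain. They were taken as the rows of those names in the snRNA-seq count table, which makes 3 members of 33902 gene symbols. The data are single-nucleus RNA sequencing (snRNA-seq) and single-nucleus chromatin accessibility sequencing (snATAC-seq) of the ventral hippocampus of adult male mice of the inbred strains B6 (C57BL/6J) and D2 (DBA/2J, labelled DBA), aged 10 to 16 weeks and without any treatment. Each assay has 2 libraries per strain, and each library pools tissue of about 2 animals. The study asked how sequence differences between inbred strains bear on methylation and transcript abundance, and the 16 methylation samples among its 24 samples are not analysed here. The values are unique molecular identifier (UMI) counts that the authors added up by cell type and library. 14 of the 17 cell types of the snRNA-seq table were used: 8 excitatory types, the inhibitory type Inh-MGE (interneurons of the medial ganglionic eminence) and 5 non-neuronal types, which are astrocytes (Astro), oligodendrocytes (ODC), their precursors (OPC), microglia (MGC) and vascular and leptomeningeal cells (VLMC).

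In the Dlk1-Dio3 domain the protein-coding genes Dlk1, Rtl1 and Dio3 are transcribed from the paternal chromosome, and the noncoding genes Meg3, Rian and Mirg from the maternal one. A methylated region between Dlk1 and Meg3 keeps the parental copies apart. Meg3 is a nuclear long noncoding RNA that is abundant in brain, Rian carries clusters of small nucleolar RNAs in its introns, and Mirg is the host transcript of a large microRNA cluster. The 3 genes are commonly regarded as parts of one long maternal transcription unit. Both strains here are inbred, so reads of the parental chromosomes were not separated.

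In the GENCODE annotation of GRCm38, all 3 genes lie on the plus strand of chromosome 12. Meg3 (ENSMUSG00000021268) runs over chr12:109541001-109571726, a span of 30.7 kb. Rian (ENSMUSG00000097451) runs over chr12:109603940-109661716, a span of 57.8 kb that also holds 13 annotated snoRNA genes. Mirg (ENSMUSG00000097391) runs over chr12:109729764-109749460, a span of 19.7 kb.

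The microRNAs below are shown because they are what the members are known to give rise to, while the UMI counts measure the host transcripts. In the RefSeq microRNA table (GRCm38.p6), 3 mature microRNAs lie inside the Meg3 span, 6 inside Rian and 26 inside Mirg. Capitals mark the seed, bases 2 to 8, which pairs with target transcripts. Of these, miR-770-3p lies in Meg3, miR-341-3p and miR-370-3p in Rian, and the others in Mirg. miR-453 and miR-496a-5p share the seed GGUUGCC, and each of the other seeds printed occurs once among the mature microRNAs of the domain.
miR-770-3p: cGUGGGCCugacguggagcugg
miR-341-3p: uCGGUCGAucggucggucggu
miR-370-3p: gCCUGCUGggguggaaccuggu
miR-134-5p: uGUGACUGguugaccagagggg
miR-485-3p: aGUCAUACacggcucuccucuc
miR-382-5p: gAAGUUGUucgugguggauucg
miR-410-3p: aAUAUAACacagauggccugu
miR-453: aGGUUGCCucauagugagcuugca
miR-496a-5p: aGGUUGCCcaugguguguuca

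The Meg3 promoter is shown because an accessibility peak covers it and its values by strain are given below. RefSeq's table gives it as chr12:109540746-109541045 on the plus strand of GRCm38.p6, 300 bases in all. The last 50 follow RefSeq's own gene start, which differs from the GENCODE start given above. Capitals mark TGACGTCA, the palindromic cyclic AMP response element.
Meg3 promoter: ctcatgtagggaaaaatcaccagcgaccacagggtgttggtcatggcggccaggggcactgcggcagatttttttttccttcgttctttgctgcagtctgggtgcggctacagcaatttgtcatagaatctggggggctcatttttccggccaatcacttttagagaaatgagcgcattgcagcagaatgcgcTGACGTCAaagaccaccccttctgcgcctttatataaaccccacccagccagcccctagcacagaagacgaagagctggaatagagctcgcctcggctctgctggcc

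3 motifs were searched on both strands of this window. TGACGTCA, which reads the same on both strands, occurs at position 194 of the window and in 588 of 32851 promoters of the same length, or 1.79% of them. TGCCGC, the core of the site read by the imprint-keeping protein Zfp57, occurs on the minus strand at position 61 and in 11.607% of promoters. TATAAA occurs on the plus strand at position 226 and on the minus strand at position 222, where the matches overlap, and in 13.616% of promoters. The window holds 13 CG dinucleotides, a number that 37.9% of promoters reach. The RefSeq promoter window of Mirg holds 10 and that of Rian 0. The Mirg window, chr12:109734731-109735030, lies inside the GENCODE span of Mirg given above and not at its start. A second Meg3 promoter window, chr12:109545148-109545447, holds 1. No motif was found in these other windows. Such matches describe letters and do not show binding.

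The libraries held 40331488 to 52947791 UMI counts over the cell types used, and a cell type of a library held 225029 to 11352265 counts from 76 to 1489 nuclei. Each column is given as CPM, a count scaled to a column total of 1e+06. The cell type names were checked against marker lists. In 11 of 12 lists the summed markers were higher in every cell type of that name than in any other. The 3 CA1 markers summed to 205 to 508 CPM in the CA1 types and reached 374 CPM in microglia, and 2 of the 3 CA3 markers were highest in Exc-CA3. Of the 33902 symbols, 24669 had counts in both strains and 8194 in D2 alone, and the D2-only symbols held 3.54% of the D2 counts.

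All 3 transcripts were neuronal, with their highest mean in Inh-MGE and their lowest neuronal mean in dentate gyrus granule neurons (Exc-DG). Summed over the neuronal types, Meg3 stood at 7934 and 7898 CPM in B6 and at 10167 and 9886 CPM in D2, with 1 value per library. Rian stood at 545 and 568 CPM in B6 and at 558 and 504 CPM in D2, and Mirg at 128 and 112 CPM in B6 and at 136 and 120 CPM in D2. Meg3 was thus between 0.790% and 1.02% of all neuronal counts, and ranked 2 among all symbols by counts in every library. Per kilobase of gene span, the mean neuronal level was 292 CPM per kb for Meg3, 9.41 for Rian and 6.28 for Mirg. The span was used because reads in introns were counted. UMI counts of 3' libraries need not grow with span, so these values are not levels corrected for length.

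Meg3 averaged 14883 CPM in Inh-MGE (13637 to 15848 over the 4 libraries) and 13753 CPM in Exc-CA1-Fras1 (11628 to 15846). These ranges overlapped within D2, so the order of the top pair was not settled. Next came Exc-CA1-Camk2d at 10826 CPM, Exc-Gpc6 at 10219, Exc-Cdh12 at 10095, Exc-ENT (entorhinal) at 10070, Exc-CA1-Galntl6 at 9343 and Exc-CA3 at 9162. No neighbours among these 6 types were apart in both strains. Exc-DG averaged 2921 CPM (2426 to 3414), with all 4 libraries below all 4 of Exc-CA3. The non-neuronal types followed at 1434 CPM in MGC, 1058 in VLMC, 972 in OPC, 798 in ODC and 666 in Astro, and the lowest Exc-DG library was above the highest MGC library (1863 CPM).

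Rian averaged 881 CPM in Inh-MGE (804 to 941 over the 4 libraries) and 793 CPM in Exc-CA1-Fras1 (762 to 806). The next 6 excitatory types lay between 522 CPM in Exc-CA1-Galntl6 and 676 CPM in Exc-CA1-Camk2d, and no neighbours among them were apart in both strains. Exc-DG averaged 213 CPM (201 to 224), below every library of the other neuronal types and above every non-neuronal library. VLMC averaged 82.4 CPM, MGC 81.9, OPC 71.4, ODC 44.6 and Astro 34.3.

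Mirg averaged 225 CPM in Inh-MGE (199 to 249) and 182 CPM in Exc-CA1-Fras1 (163 to 201), and here the pair were apart within each strain. The next 6 excitatory types lay between 120 CPM in Exc-CA1-Galntl6 and 145 CPM in Exc-Gpc6, with no neighbours apart in both strains. Exc-DG averaged 48.7 CPM (42.7 to 55.3), below every library of the other neuronal types. Its range met that of MGC (20.2 to 50.6 CPM), so these neighbours were not apart. VLMC averaged 22.2 CPM, OPC 21.3, ODC 16.4 and Astro 12.1.

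**Figure D1:**
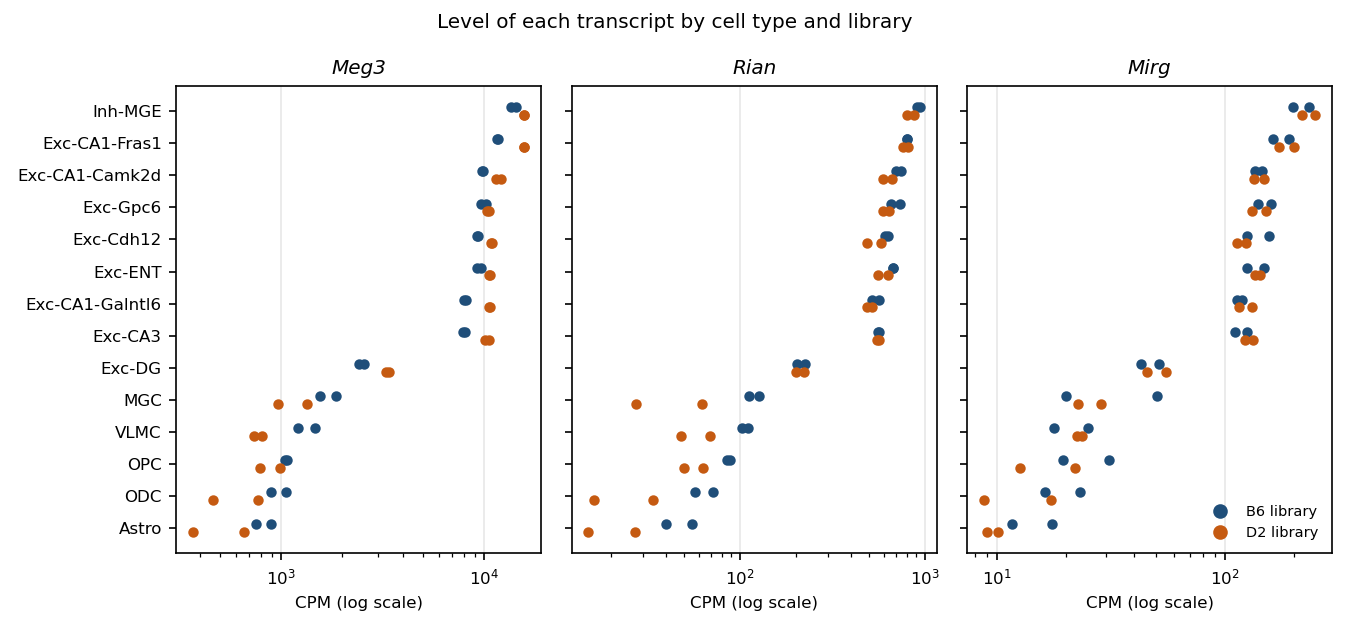
CPM of Meg3, Rian and Mirg (log scale, one panel each) in the 14 cell types, with a point for each of the 2 B6 and 2 D2 libraries. The types are ordered by mean Meg3, and all 3 transcripts fall from Inh-MGE at the top to Exc-DG among the neurons and then to the non-neuronal types.

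The cell types were compared in 1 edgeR quasi-likelihood model over all columns, with the library as a block so that types were compared within a library, and with Benjamini-Hochberg adjustment over 19729 symbols. Neuronal over non-neuronal types, Meg3 was 11.3-fold higher (log2 difference 3.49, SE 0.08, adjusted p = 4.09e-41). Rian was 11.2-fold higher (3.48, SE 0.08, edgeR adjusted p = 1.37e-41) and Mirg 7.49-fold higher (2.90, SE 0.06, edgeR adjusted p = 4.99e-43). All 3 members were called higher, where 39.1% of all symbols were called higher and 33.7% lower in neuronal types.

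The mean of the 8 excitatory types was below Inh-MGE for all 3 members, by 0.65 for Meg3, 0.59 for Rian and 0.79 for Mirg on the log2 scale (edgeR adjusted p = 6.21e-06, 2.49e-06 and 3.98e-18). Of all symbols, 26.1% were called lower in this contrast. Inh-MGE was the only inhibitory type used, so the contrast does not cover other interneurons.

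Exc-DG stood apart from the other excitatory types. As a share of the mean of the other 7 excitatory types, its level was 27.8% ± 1.71 for Meg3, 33.7% ± 1.80 for Rian and 34.9% ± 2.44 for Mirg (SD, n = 4 libraries). In the model, Exc-DG was 3.34-fold lower for Meg3 (log2 difference -1.74, SE 0.15, edgeR adjusted p = 2.70e-15). It was 2.75-fold lower for Rian (-1.46, SE 0.12, edgeR adjusted p = 2.53e-15) and 2.67-fold lower for Mirg (-1.41, SE 0.07, edgeR adjusted p = 5.93e-26). All 3 were called lower, against 19.7% of all symbols called lower and 30.4% called higher. Counted per nucleus, Meg3 gave 17.0 to 24.9 UMIs in Exc-DG against 63.3 to 167 in the libraries of the other excitatory types.

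Between oligodendrocytes and their precursors, Meg3 and Mirg were not called (log2 differences -0.11 and -0.16, edgeR adjusted p = 0.66 and 0.55). Rian was called lower in oligodendrocytes (-0.47, SE 0.20, edgeR adjusted p = 0.0438), where 23.9% of symbols were called lower. The Rian call was lost in 6 of 8 other settings (adjusted p from 0.0284 to 0.198), and it rested on 24 to 184 Rian counts per oligodendrocyte column. It was lost without B6 library 2, without D2 library 2 and without D2 library 3 (edgeR adjusted p = 0.127, 0.11 and 0.198).

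The genes whose levels over the cell types were most like each member were largely the other members and their neighbours. Over the 14 cell type means, and among 10966 symbols with counts in both strains and a mean of at least 10 CPM, the genes most correlated with Meg3 were Mirg (Pearson r = 0.997), Rian (0.995), Rtl1 (0.994), B830012L14Rik (0.985) and A230006K03Rik (0.984). For Rian they were Meg3 (0.995), B830012L14Rik (0.995), Mirg (0.995), Rtl1 (0.992) and Ube3a (0.982). For Mirg they were Meg3 (0.997), Rian (0.995), Rtl1 (0.992), B830012L14Rik (0.985) and Snhg11 (0.980). Rtl1 is the paternally expressed retrotransposon-derived gene of the domain, on the opposite strand to Meg3, and B830012L14Rik is an unnamed noncoding transcript of the domain. The means share their 4 libraries, and each gene was neuronal, so these values describe a common shape over 14 points and no more.

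Between the strains, Meg3 was higher in D2 neurons, and Rian and Mirg were not called in the same nuclei. In the sum over neuronal types both D2 libraries (10167 and 9886 CPM) were above both B6 libraries (7934 and 7898 CPM) for Meg3. The fitted difference was 1.22-fold (log2 0.29, SE 0.04, edgeR quasi-likelihood adjusted p = 1.42e-04). The values of Rian overlapped between strains (log2 -0.12, SE 0.06, edgeR adjusted p = 0.165), as did those of Mirg (0.05, SE 0.08, edgeR adjusted p = 0.668). Of all symbols tested, 30.8% were called higher and 16.9% lower in D2 neurons, with a median log2 difference of 0.09. Among symbols with counts in both strains, 16.5% were called higher. The p-values measure the spread between 2 libraries of pooled animals per strain, and an exact permutation test of 2 against 2 could not go below p = 0.33. The strains were also counted against different references and apparently different gene lists. Strain and counting therefore cannot be told apart here, and the part of counting in the differences was not tested.

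Cell type by cell type, 41 tests of a member in a cell type were made. The Meg3 difference was above 0 in 9 of 9 neuronal types and was called higher in D2 in 4 of them. In Exc-DG, Meg3 was 2426 and 2559 CPM in B6 and 3414 and 3286 CPM in D2 (log2 0.40, SE 0.06, edgeR adjusted p = 5.91e-05). In Exc-CA3 it was 8038 and 7886 CPM in B6 and 10119 and 10606 CPM in D2 (log2 0.35, SE 0.06, edgeR adjusted p = 9.31e-05). Both D2 libraries were above both B6 libraries in each of these types.

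The other 2 types with a call were CA1 types. In Exc-CA1-Fras1, Meg3 was 11628 and 11762 CPM in B6 and 15777 and 15846 CPM in D2 (log2 0.37, SE 0.05, edgeR adjusted p = 8.76e-06). In Exc-CA1-Galntl6 it was 7971 and 8165 CPM in B6 and 10687 and 10551 CPM in D2 (log2 0.37, SE 0.04, edgeR adjusted p = 4.79e-07). Calls of higher symbols in D2 made up 22.2% of all symbols tested in Exc-DG, 19.2% in Exc-CA3, 16.1% in Exc-CA1-Fras1 and 20.9% in Exc-CA1-Galntl6.

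In the remaining 5 neuronal types the Meg3 difference was smaller and did not pass. It ran from 0.03 in Exc-Gpc6 (edgeR adjusted p = 0.839) to 0.23 in Exc-CA1-Camk2d (edgeR adjusted p = 0.237), with Inh-MGE at 0.14 (edgeR adjusted p = 0.5). There, 10.9% of symbols were called higher in D2 in Exc-Gpc6, 12% in Exc-CA1-Camk2d, 13.2% in Inh-MGE, 16.4% in Exc-ENT and 5.03% in Exc-Cdh12. Whether any pair of these neuronal types differed in the size of the strain difference was not tested.

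Rian was below 0 in 9 of 9 neuronal types, from -0.24 to -0.03, and was called lower in Exc-ENT alone. There it was 672 and 673 CPM in B6 and 631 and 561 CPM in D2 (log2 -0.22, SE 0.08, edgeR adjusted p = 0.0315), and 11.6% of symbols were called lower. That call was lost without B6 library 3 and without D2 library 3 (edgeR adjusted p = 0.0799 and 0.389, in a range of 0.00523 to 0.389 over all settings), with DESeq2 (adjusted p = 0.0634) and with only symbols counted in both strains (edgeR adjusted p = 0.0505). Mirg was called in none of 13 cell types by edgeR and none of 14 by DESeq2, with an unadjusted p under 0.05 in 0 of them by either tool, and its neuronal differences ran from -0.25 to 0.09.

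**Figure D2:**
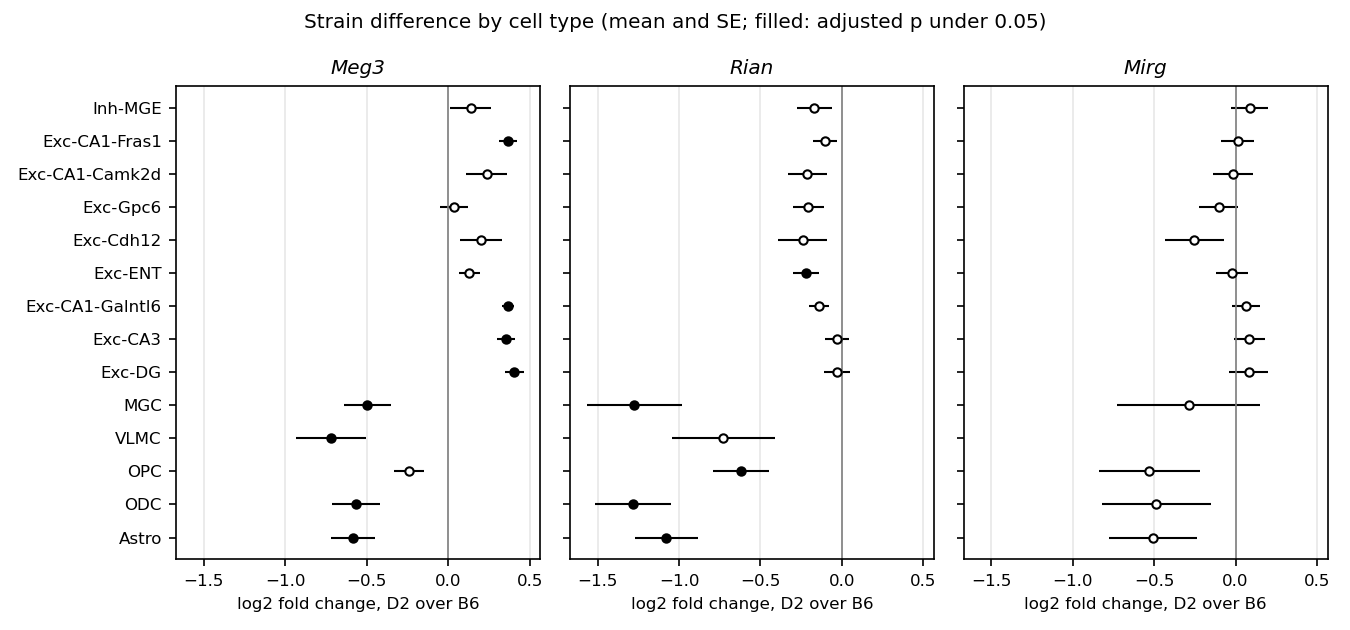
Strain difference (log2 fold change of D2 over B6, with its SE from edgeR) of Meg3, Rian and Mirg in each cell type; filled points have an adjusted p under 0.05. Meg3 lies above 0 in the 9 neuronal types and below 0 in the 5 non-neuronal ones, Rian lies below 0 throughout, and no Mirg point is filled (VLMC was not tested for Mirg).

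The relation among the members differed by strain. For each 100 Meg3 counts in neurons there were 6.87 and 7.20 Rian counts in B6 and 5.49 and 5.10 in D2. The D2 ratio was 0.753 ± 0.0465 of the B6 ratio (SD, n = 2 libraries per strain). Both D2 libraries lay below both B6 libraries in 13 of 14 cell types, with VLMC the exception, and the D2 over B6 ratio ran from 0.533 in MGC to 0.953 in VLMC. These ratios within a library do not depend on its scaling. They can depend on the reference and gene list used for counting, which was not tested. The 14 cell types share the 4 libraries, and the ratios are given as a description, with no test.

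Exc-DG held the most Rian per Meg3 among the neurons in both strains. Per 100 Meg3 counts it held 8.36 and 8.74 Rian counts in B6 and 6.51 and 6.13 in D2. In the other 8 neuronal types the B6 libraries ran from 6.30 to 7.56 and the D2 libraries from 4.50 to 6.03. Every Exc-DG library was thus above every library of its own strain in the other neuronal types.

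Mirg counts per 100 Meg3 counts in neurons were 1.61 and 1.42 in B6 and 1.33 and 1.22 in D2, a D2 over B6 ratio of 0.843. Both D2 libraries lay below both B6 libraries in 7 of 9 neuronal types, the exceptions being Inh-MGE and Exc-Gpc6, and in none of the 5 non-neuronal types. In B6, replicates of Mirg were further apart in Astro, ODC, MGC and OPC than in any neuronal type. A non-neuronal column held 4 to 54 Mirg counts. In VLMC both D2 libraries (2.93 and 3.06) lay above both B6 libraries (1.46 and 1.69), from 4 to 14 Mirg counts per column.

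**Figure D3:**
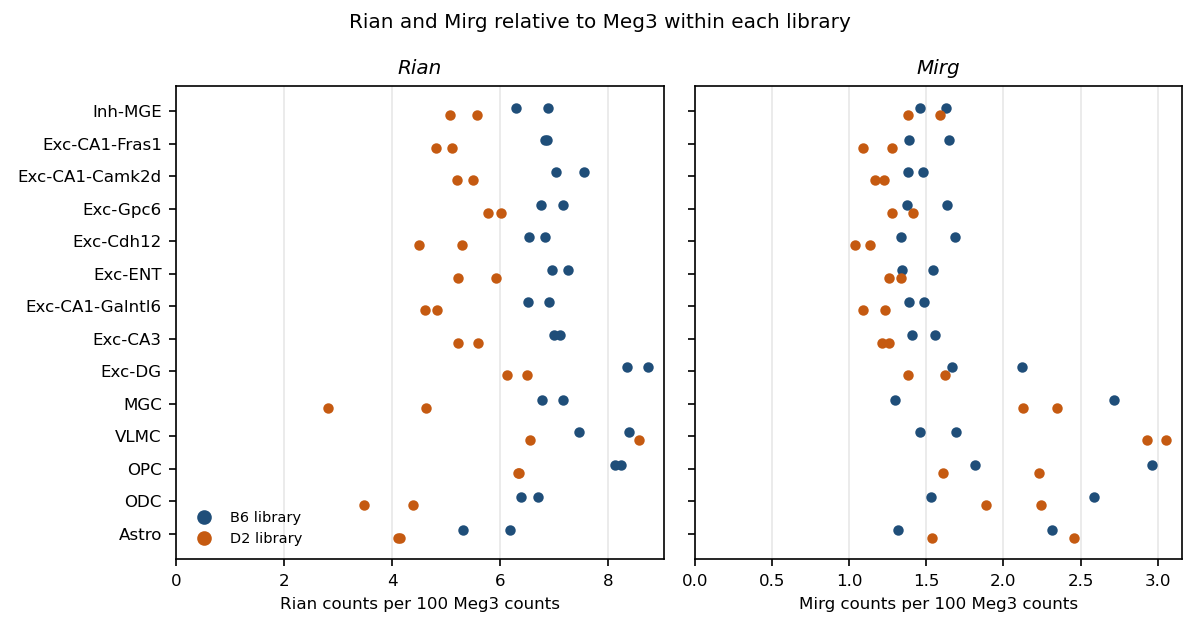
Rian (left) and Mirg (right) counts per 100 Meg3 counts in each of the 2 B6 and 2 D2 libraries, by cell type. For Rian the D2 points lie left of the B6 points in every type but VLMC, and in neurons the Exc-DG points lie furthest right within each strain.

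In the non-neuronal columns the members were low, and their level in the non-neuronal sum was within the range of 5 transcripts chosen as neuronal. Free RNA from broken cells gives UMI counts in every droplet, so the members were set beside Snap25, Syt1 and Slc17a7 (a vesicle fusion protein, a calcium sensor of vesicle release and a vesicular glutamate transporter), the neuronal splicing factor gene Rbfox3 and the neuronal noncoding RNA Snhg11. As a percentage of the neuronal level of the same library, summed non-neuronal Meg3 was 11.9% and 13.5% in B6 and 7.54% and 5.64% in D2. Rian was 11.3% and 13.0% in B6 and 6.81% and 5.35% in D2. Mirg was 18.8% and 14.3% in B6 and 11.4% and 9.79% in D2.

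The 5 neuronal transcripts spanned the same shares. Slc17a7 stood highest, at 23.3% and 20.3% in B6 and 16.6% and 11.8% in D2. Rbfox3 stood lowest, at 6.62% and 7.72% in B6 and 4.71% and 4.26% in D2. Each of the 5 was lower in both D2 libraries than in both B6 libraries by this measure. By cell type, Snap25 stood at 23.5% to 37.2% in OPC, against 13.1% to 30.8% in MGC and 5.45% to 16.2% in Astro. Whether OPC express Snap25 was not tested. Summed over the non-neuronal types, Meg3, Rian and Mirg lie within the range of these transcripts, but some values of single types lay outside it. In MGC of B6 library 2, Mirg stood at 39.6% and the highest of the 5, Slc17a7, at 34.4%. In Astro of D2 library 3, Rian stood at 3.01% and the lowest of the 5, Syt1, at 3.26%. Non-neuronal counts of the members are not read as expression in these cells. Free RNA and low expression cannot be told apart here. Nuclei there gave 1.85 to 3.21 Meg3 UMIs each, against 64.2 to 88.0 in neurons.

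At these low levels, the strain difference in the non-neuronal columns ran the other way from that in neurons for Meg3. Summed non-neuronal Meg3 was 940 and 1066 CPM in B6 and 767 and 558 CPM in D2 (log2 -0.55, SE 0.14, edgeR adjusted p = 0.0086). Rian was 61.4 and 74.1 CPM in B6 and 38.0 and 27.0 CPM in D2 (log2 -1.01, SE 0.15, edgeR adjusted p = 1.75e-04). Mirg was 23.9 and 16.0 CPM in B6 and 15.4 and 11.8 CPM in D2 (log2 -0.50, SE 0.21, edgeR adjusted p = 0.104).

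Over the non-neuronal sum 12% of symbols were called lower and 18.5% higher in D2. Without D2 library 3 the Meg3 difference was -0.34 (edgeR adjusted p = 0.146), and over all settings the adjusted p ran from 3.89e-06 to 0.146. Among the comparison transcripts in the same fit, Syt1 was -0.75 (edgeR adjusted p = 1.51e-04), Rbfox3 -0.66 (0.00334), Slc17a7 -0.51 (0.00779), Snap25 -0.34 (0.0895) and Snhg11 0.07 (0.731). The part of free RNA in the differences of the members was not tested.

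Within the non-neuronal types, Meg3 was called lower in D2 in 4 of 5 (Astro -0.59, ODC -0.57, MGC -0.50 and VLMC -0.72), and was at -0.24 in OPC (edgeR adjusted p = 0.0603). Without D2 library 3 Meg3 was called in 1 of the 5. Rian was called lower in 4 of 5 (Astro -1.08, ODC -1.28, MGC -1.27 and OPC -0.62), and was at -0.73 in VLMC (edgeR adjusted p = 0.19). The share of symbols called lower in D2 was 11.7% in Astro, 8.93% in ODC, 5.12% in MGC, 4.76% in VLMC and 7.3% in OPC. DESeq2 called Meg3 in none of the 5 types (3 at an unadjusted p under 0.05) and Rian in 2.

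**Figure D4:**
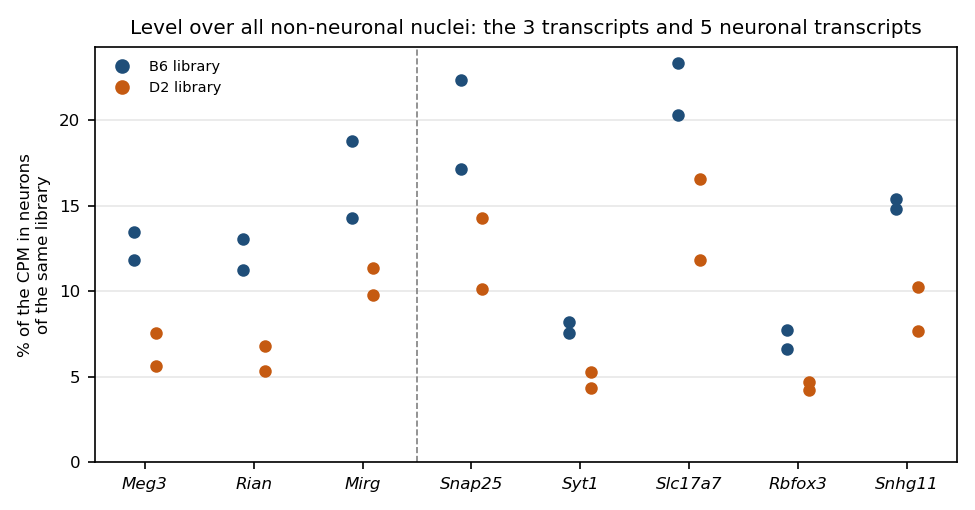
Level over all non-neuronal nuclei as a percentage of the CPM in neurons of the same library, for the 3 members (left of the dashed line) and 5 neuronal transcripts, with a point per library. The members lie between 5.35% and 18.8%, inside the 4.26% to 23.3% of the neuronal transcripts, and the D2 points lie below the B6 points for all 8.

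The difference between these strain effects was tested in the model over all columns. For Meg3 the mean strain difference in neuronal types exceeded that in non-neuronal types by 0.74 on the log2 scale (SE 0.09, edgeR adjusted p = 1.80e-09), and for Rian by 0.80 (SE 0.11, edgeR adjusted p = 7.09e-08). For Mirg the value was 0.30 (SE 0.15, edgeR adjusted p = 0.297). Such a call in this direction was made for 3.33% of all symbols, and for 2 of the 3 members. A gap in this direction was not particular to the members. In the separate fits of the sums, Snap25 was at 0.27 in neurons against -0.34 in the non-neuronal sum. Snhg11 was at 0.72 against 0.07, Slc17a7 at 0.02 against -0.51, Syt1 at -0.13 against -0.75 and Rbfox3 at -0.08 against -0.66. The joint test of all strain by cell type terms passed for Meg3 (edgeR adjusted p = 4.69e-06) and Rian (1.61e-05) and not for Mirg (0.495), against 15% of all symbols. The non-neuronal side of the contrast rests on the low levels given above, whose source was not tested.

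The other genes of the domain and its flanks were called in both directions in neurons. Of 125 symbols listed for the domain and its flanks, 49 were in the table and 28 passed the count filter in neurons, 8 of them listed at 0 in B6. Among the other 20, 3 were called higher in D2 and 5 lower, with a median log2 difference of -0.09 against 0.09 for all symbols tested. Of all symbols 30.8% were called higher (16.5% among those counted in both strains) and 16.9% lower. Those higher were Wdr25 (0.51), which flanks the domain, and the unnamed transcripts Gm34719 (1.10) and 3110009F21Rik (0.93). Those lower were the mitochondrial carrier genes Slc25a29 (-0.61) and Slc25a47 (-0.40), Rtl1 (-0.18), B830012L14Rik (-0.20) and Gm40576 (-2.24). Some of these calls rest on few counts. Over all cell types used, Gm34719 held 44 counts in B6 and 77 in D2, 3110009F21Rik 34 and 57, and Gm40576 32 and 5.

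Rtl1 lies on the minus strand between Meg3 and Rian, and the strand setting of the counting is not given in the sources used here, so reads of an antisense transcript could be counted with it. Dlk1, a membrane protein of the Notch ligand family, was at -0.42 (edgeR adjusted p = 0.0659), and Dio3, which inactivates thyroid hormone, at -0.33 (edgeR adjusted p = 0.314). In the non-neuronal sum 13 were counted, of which Dlk1 (-1.66) and B830012L14Rik (-0.998) were called lower and none higher (2 by unadjusted p under 0.05), against 12% and 18.5% of all symbols.

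Across cell types, 14 symbols of the domain and its flanks, other than the members, were tested. Of these 9 were called higher and 3 lower in neuronal types, where 39.1% of all symbols were called higher and 33.7% lower. In Exc-DG 3 were called higher and 7 lower than in the other excitatory types, against 30.4% and 19.7% of all symbols. Rtl1 was 3.32 higher on the log2 scale in neuronal types and 1.27 lower in Exc-DG, and B830012L14Rik was 4.19 higher in neuronal types and at -1.498 in Exc-DG (edgeR adjusted p from 3.67e-46 to 1.20e-22). Begain, a postsynaptic density protein gene beside Dlk1, was 1.63 higher in neuronal types and at 0.01 in Exc-DG (edgeR adjusted p = 0.992).

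Proteins known to keep imprints or to drive the Mirg cluster were listed as 20 genes, among them the zinc finger genes Zfp57 and Zfp445, their partner Trim28, DNA methyltransferases, TET enzymes and MEF2 factors. In neurons 19 were tested, 2 were higher in D2 (Trim28 0.27, Zfp445 0.27) and 2 lower (Aff3 -0.34, Mef2a -0.37), with a median of -0.02, against 30.8% and 16.9% of all symbols. In the non-neuronal sum 20 were tested, none was higher (1 by unadjusted p under 0.05) and 2 were lower (the histone methyltransferase gene Setdb1 -0.30, Zfp57 -0.83), against 18.5% and 12% of all symbols. Between neuronal and non-neuronal types 8 of the 20 were higher and 10 lower, against 39.1% and 33.7%. In Exc-DG against the other excitatory types 9 were higher and 4 lower, against 30.4% and 19.7%, with Zfp57 at 2.32, Mef2d at 0.62, Mef2c at 0.59 and Mef2a at 0.33.

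Accessibility at the members was read from snATAC-seq, a separate set of 4 libraries. Of 300819 peaks, 23 touched a member or the 2000 bases before its start: 7 at Meg3, 12 at Rian and 4 at Mirg. Most were weak, and 3 stood out, a peak over the Meg3 promoter, one inside Meg3 and one at the 3' end of Mirg. The promoter peak, chr12:109539966-109541119, covers the sequence printed above. Summed over the 9 neuronal types used from snATAC-seq, it held 14.2 and 14.2 CPM in B6 and 15.1 and 14.7 CPM in D2. The strain difference was 0.10 on the log2 scale (SE 0.07, edgeR adjusted p = 0.396) and did not pass. In Exc-DG the peak held 13.8 and 12.1 CPM in B6 and 14.5 and 14.1 CPM in D2 (0.18, SE 0.10, edgeR adjusted p = 0.35).

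The peak inside Meg3, chr12:109542712-109543683, was higher in D2. It held 22.1 and 21.9 CPM in B6 neurons and 26.3 and 23.7 CPM in D2 neurons (log2 0.22, SE 0.06, edgeR adjusted p = 0.0054). In Exc-DG it held 14.3 and 13.7 CPM in B6 and 18.7 and 16.7 CPM in D2 (0.37, SE 0.09, edgeR adjusted p = 0.00223). The peak at the end of Mirg, chr12:109747993-109751071, has its centre beyond the gene. It held 33.2 and 33.6 CPM in B6 neurons and 36.1 and 36.4 CPM in D2 neurons (0.15, SE 0.05, edgeR adjusted p = 0.0365), and was also called in Exc-DG (0.23, SE 0.07, edgeR adjusted p = 0.0205).

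With 1 weak Rian peak (0.58, edgeR adjusted p = 0.0482), 3 of the 23 peaks were called higher in D2 neurons and none lower, where 5.42% of all peaks were called higher and 5.33% lower. In Exc-DG 2 were called higher and none lower, against 3.39% and 2.58% of all peaks. DESeq2 called none of the 23 in either set, with 2 at an unadjusted p under 0.05 in each. Without B6 snATAC-seq library 3 edgeR called none in either set, and without D2 library 2 none in Exc-DG (3 to 5 at an unadjusted p under 0.05). Of 116 other peaks of the domain, 6 were higher and 8 lower in neurons, and 1 higher and 7 lower in Exc-DG.

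Exc-DG was set beside the other 7 excitatory types at the same peaks. At the Meg3 promoter it averaged 13.6 CPM (12.1 to 14.5 over 4 libraries), within the 12.9 to 18.1 CPM of the means of the other types. At the peak inside Meg3 it averaged 15.8 CPM (13.7 to 18.7), and each of its libraries was below every library of the other types, the lowest of which held 19.5 CPM. At the peak at the end of Mirg it averaged 37.1 CPM, within the means of the other types (26.3 to 51.4). These values are a description, with no test, and they come from other libraries than the transcript counts.

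**Figure D5:**
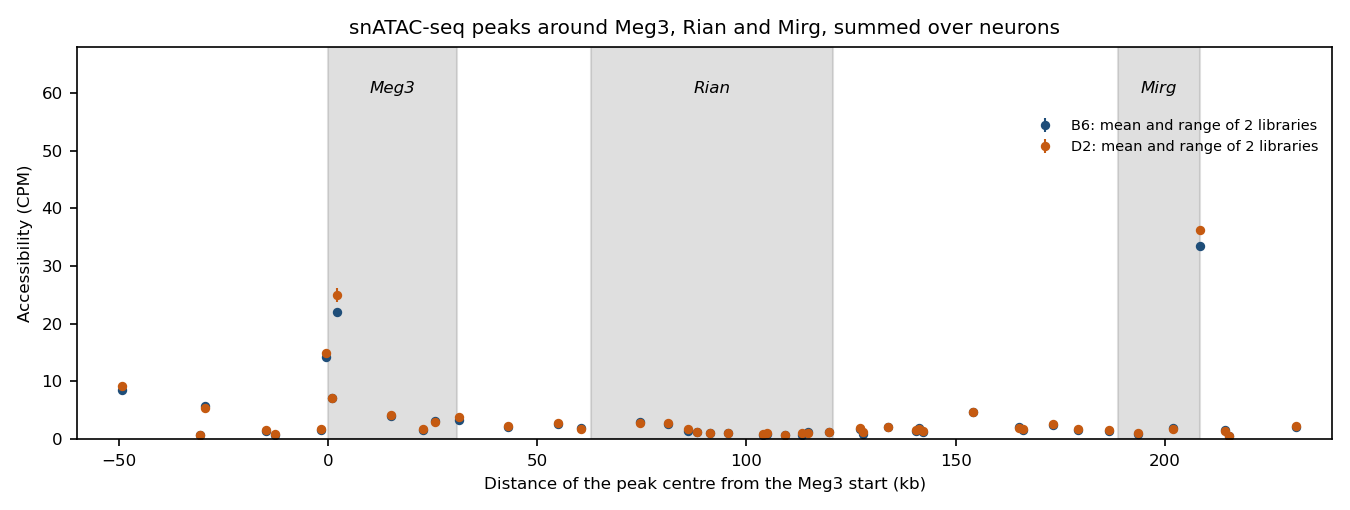
Accessibility (CPM, summed over neurons) of peaks around the 3 genes against the distance of the peak centre from the Meg3 start in kb, with the mean and range of 2 libraries per strain and the gene spans in grey. The tallest peaks are those at the Meg3 start, inside Meg3 and at the end of Mirg, and the strains lie apart by little more than the size of the symbols.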

How the data were processed

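Transcript reads were aligned by the authors in Cell Ranger 6.0.2, keeping introns, and accessibility reads in Cell Ranger ATAC 2.0.0. The B6 libraries were set against mm10 and the D2 libraries against mm10 carrying D2 SNPs. Genes came from GENCODE (release not given in the sources used here). They removed doublets with DoubletFinder, called peaks per sample with MACS, merged them, named cell types and deposited raw counts per gene or peak, summed by cell type and library, and counts of nuclei. Nuclei for snRNA-seq were sorted to enrich for NeuN-positive nuclei, and those for snATAC-seq were not.

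The tables number libraries 2 and 3 and the labels number replicates 1 and 2, so columns were placed by strain only. Columns used were 56 (snRNA-seq, 29014 of 30880 nuclei) and 36 (snATAC-seq, 9 of 15 cell types, 25148 of 27206 nuclei). Another 12 and 24 columns, of Inh-CGE, Inh-Lamp5, CR and the non-neuronal snATAC-seq types, were not mapped to samples and not used, and the planned contrast of CR was not run.

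Counts were tested with edgeR 4.0.16 (R 4.3.3; TMM, filterByExpr or at least 10 counts per peak, quasi-likelihood F test, Benjamini-Hochberg over all features, threshold 0.05), tested on simulated data, with DESeq2 1.42.0 as an alternative. The study used DESeq2 in another version. Python 3.11.15, numpy 2.4.6, pandas 2.3.3 and matplotlib 3.10.9 were used. Libraries of a strain differed at 22579 or more symbols. Deviations of same-numbered libraries correlated at -0.0943, -0.089 and -0.0582. These values gave no sign that the numbers pair the libraries, but cannot exclude it. Peaks were assigned to a gene by overlap with its span or the 2000 bases before it. Genes were named by a rule: the members, listed genes called in neurons, and the 5 genes most correlated with each member on log2(CPM + 1). No symbol inside a member had 50 counts in a strain. Members, lists and tests were chosen with earlier results of these data known.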

Additional observations from a re-analysis of the deposited data

Results flagged for a closer look

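The strain difference of Meg3 differed between neuronal and non-neuronal types: in the model over all cell types it was 0.74 higher on the log2 scale in the neuronal types, where it was above 0, than in the non-neuronal types, where it was below 0. For Rian the same contrast was 0.80, with a difference below 0 on both sides. The joint edgeR test over all strain by cell type terms gave an adjusted p of 4.69e-06 for Meg3 and 1.61e-05 for Rian. All 4 values were singled out because the difference between the groups of cell types itself passed the test. The summed non-neuronal levels lie within the range of the 5 neuronal transcripts measured in the same columns. In the separate fits of the sums, each of these 5 transcripts also had a higher D2 over B6 value in neurons than in non-neuronal nuclei. Both tests take cell types of the same 4 libraries as if they were independent, so their p-values can be too small.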

How the results depend on the processing

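No called difference changed sign under another setting. For the comparisons, 257 values kept their side of the threshold or stayed within the spread, 7 lost a call, 4 gained one and 20 values or counts moved. Mirg over neurons, not called at 0.05, was -0.05 without B6 library 3 and -0.06 without D2 library 2, and uncalled differences in single cell types also changed sign when libraries were left out. Without D2 library 3, Meg3 over non-neuronal nuclei was -0.34 and no longer called (-0.79 to -0.34 when each library was left out in turn). Rian over neurons was called at -0.21 without D2 library 2 (-0.21 to -0.033). Mirg over non-neuronal nuclei was called with the replicate block (-0.50, edgeR adjusted p = 0.0329) and without B6 library 3 or D2 library 2 (-0.79 to -0.17). The replicate block changed no other call on the sums. Cell types with a strain difference numbered 8 for Meg3 (9 with the replicate block, 4 by DESeq2, 5 to 9 leaving out libraries, 5 without D2 library 3), 5 for Rian (2 by DESeq2, 3 to 8, 8 without B6 library 2, 3 without D2 library 3) and 0 for Mirg (0 to 1, 1 without B6 library 3). For Rian, oligodendrocytes against precursors lost the call at -0.48 with a filter of 10 counts and with types of at least 200 nuclei, at -0.47 with shared symbols, and without 3 of the 4 libraries in turn (-0.67 to -0.34). Exc-DG as a share of the other excitatory types was 29.7% (Meg3) and 35.8% (Rian) with TMM-scaled CPM, and 23.4%, 28.3% and 29.3% (Mirg) per nucleus. Called peaks at the members numbered 2 in Exc-DG (0 by DESeq2, 0 to 2 leaving out libraries, 1 by peak centre) and 3 in neurons (0 by DESeq2, 0 to 2; 2 with the replicate block), lowest without B6 library 3. With symbols counted in both strains, calls in neurons over all genes were 3352 higher and 3621 lower, against 7455 and 4080. The causes were not tested. With 1 library left in a strain, its spread was taken from the other libraries. Depth limits Mirg outside neurons.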

Other observations

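Several symbols of the domain had counts in D2 alone. Gm37899, annotated between Rian and Mirg at chr12:109668869-109677585, held 0 counts in B6 and 3765 in D2, Gm25252 held 0 and 2026, and Mir300 held 0 and 102. Of 42 domain symbols with a row, 28 had counts in D2 only and 0 in B6 only. Over all symbols, 8194 had counts in D2 only and 963 in B6 only, so the strains appear to have been counted with different gene lists, and no strain difference is given for these symbols. Inside the spans of the members the only such symbol was Mir1188, with 10 counts in D2, 0.025% of the Rian counts. Whether the members themselves were counted over the same annotation in both strains was not tested.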
